A study of Mus musculus with 5 samples.

Results

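The genes described here are 36 genes of synaptic vesicles and presynaptic transmitter release, taken from the 34590 gene symbols of the count files, 16229 of which were tested, because their symbol is on a list of presynaptic genes. RNA sequencing compared medial cortex (3 libraries) with lateral cortex (2 libraries) at stage E14.5 of mouse development, counted in days after mating. All embryos were wild type on a mixed strain background, and no treatment or mutation was involved. The tissue was dissected whole, so each library mixes dividing progenitors, young neurons and the other cells of the region, and the labels do not give the limits of each dissection or say whether the libraries came from separate embryos. P-values therefore measure only the spread between these libraries, which may be technical.

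Transmitter release begins when an action potential opens calcium channels at the presynaptic terminal. Vesicles filled with transmitter are tethered by Rab3 GTPases and by large scaffold proteins of the active zone, the patch of membrane where they fuse. SNARE proteins on the vesicle (VAMP2) and on the plasma membrane (syntaxin 1 and SNAP25) pull both membranes together, complexins hold and prime the SNARE complex, and synaptotagmins sense calcium and trigger fusion. Neurons of the embryonic cortex begin to make many of these proteins soon after their last division, before most synapses form, and several of them also serve transport and membrane addition in growing axons.

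Gene reads per library ranged from 27406370 to 36460274 in medial cortex and from 56147129 to 66981952 in lateral cortex. Levels are given as CPM (a gene's reads scaled to a fixed total of reads in genes) after scaling with TMM, a method that corrects for differences in RNA composition, and 3 reads correspond to 0.0456 to 0.105 CPM. The cortical factor Emx1 (82.4 to 116 CPM in medial and 68.4 to 90.9 CPM in lateral libraries) was present in every library. Medial library 1 stood apart, with 369 genes at least 2-fold above or below every other library, against at most 61 in any of the others. Among the 36 presynaptic genes this held for Sv2c, which was higher in it, and for Syt6, which was lower.

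Most presynaptic genes had smaller values in medial than in lateral cortex, and a part of them passed the test. All 36 passed the low-count filter. Of these, 13 fell in medial cortex at an adjusted p under 0.05 and 0 rose, against 5.1% of the 16229 genes tested that were lower and 4.62% that were higher in medial cortex (9.72% in either direction). The 13 genes were Syt1, Syt4, Snap25, Stx1a, Stxbp5, Cplx2, Syn2, Sv2a, Rab3a, Rab3c, Unc13a, Bsn and Nrxn3, with levels between 1.31-fold (Stxbp5) and 5.23-fold (Nrxn3) higher in lateral cortex, a median of 2.09-fold. The log2 fold change, always medial over lateral, was negative for 29 of the 36, with a median of −0.75, whereas the median over all genes tested was 0.01. In 25 of the 36 every medial library was below both lateral libraries, compared with 26.7% of all genes tested, and in 4 every medial library was above both, compared with 26.5%. Of the 23 genes not called, 9 with negative fold changes had an adjusted p between 0.05 and 0.1, which does not show that they were equal between the regions.

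The calls were made by edgeR's quasi-likelihood test with Benjamini-Hochberg adjustment over all genes, and their adjusted p ran from 0.0316 to 0.0482, close to the threshold. They depended on single libraries, as did the calls over all genes. Without medial library 2, 0 members and 0 of all genes tested were called. There 24 of the 36 had an unadjusted p under 0.05 in edgeR, against 4035 of all 16496 genes tested in that fit. DESeq2 without medial library 2 called 19 members lower, and 2004 of all 16097 genes tested in either direction. Without medial library 3 the 4 called members were Syt1, Rab3a, Rab3c and Nrxn3, among 490 genes called. Without medial library 1 there were 15 members, all lower, among 2164 genes called. Omission of a lateral library leaves 1 in that group, so only the size of the differences is given here. The median log2 fold change of the 36 was −0.94 without lateral library 1 and −0.57 without lateral library 2. A tag in the deposited names joins medial library 2 with lateral library 1 and medial library 3 with lateral library 2, and it may mark shared embryos, which the labels do not say. With this tag as a block, medial library 1 has no partner and adds nothing to the difference, so that the fit rests on 2 pairs of libraries. It leaves fewer residual degrees of freedom than the fit without a block, which limits every p-value given for the block by tag. In it 26 members were lower and 4 higher (Syt11, Syt17, Sypl and Sv2b). Of the 16229 genes tested, 5361 were called in either direction with this block, against 1577 without it. In bulk tissue, fewer cells of a type and less RNA per cell cannot be told apart.

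**Figure D1:**
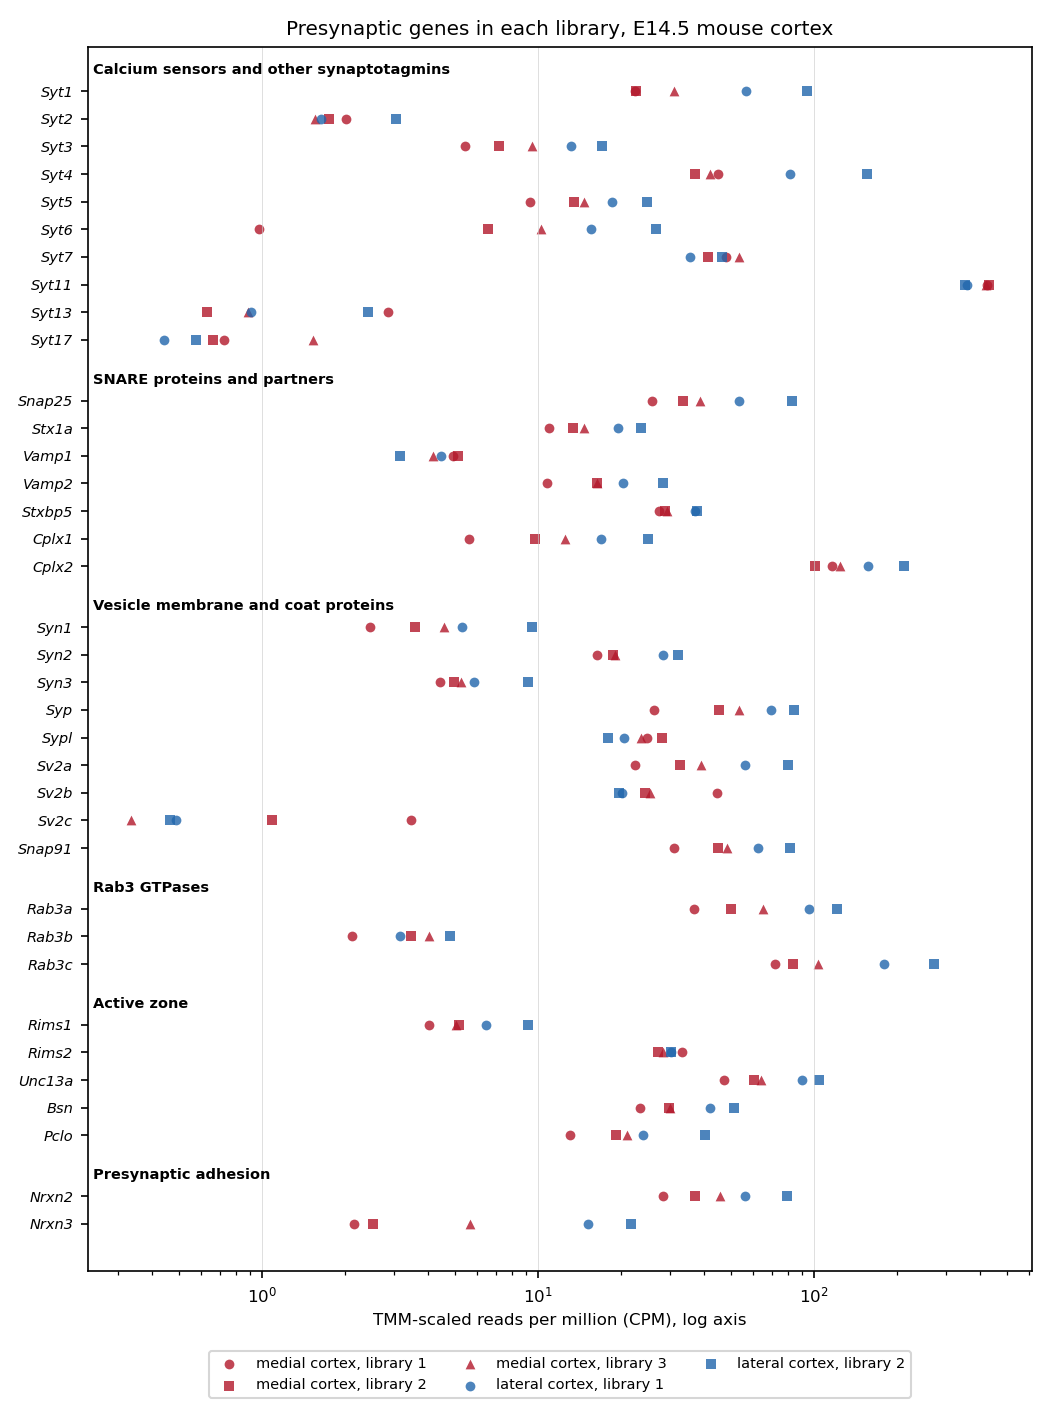
Level of each presynaptic gene in each library, in CPM on a log axis, with genes grouped by role and 1 point per library (red for medial, blue for lateral cortex). In 25 of the 36 genes the 3 red points lie left of both blue points, while Syt11, Syt17, Sypl and Sv2b show the opposite order.

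The sequences just upstream of the start sites are shown for 4 genes called lower in medial cortex (Syt1, Rab3c, Bsn and Stxbp5) and for Sv2b, whose medial libraries were all above the lateral ones, so that the promoters of genes with unlike differences can be set side by side. RefSeq gave start sites for 26 of the 36 members, with 38 windows of 250 bases, in build GRCm38.p6, which is not the mm9 build of the counts. The reads do not show which start sites were used. Sequences run 5′ to 3′ and end at the base before the start site, and capitals mark the motifs searched on both strands: the GC box (GGGCGG), the CCAAT box (CCAAT), the TATA box (TATAAA), the core of the NRF1 motif (CGCATGCG) and the cAMP response element (TGACGTCA). Capitals that run on without a break are motifs that overlap or adjoin.
Syt1, chr10:109010976-109011225, minus strand: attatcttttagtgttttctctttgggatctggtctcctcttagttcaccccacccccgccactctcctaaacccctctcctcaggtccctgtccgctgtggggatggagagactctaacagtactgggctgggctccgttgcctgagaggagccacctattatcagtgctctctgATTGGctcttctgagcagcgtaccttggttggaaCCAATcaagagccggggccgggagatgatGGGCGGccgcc
Rab3c, chr13:110280207-110280456, minus strand: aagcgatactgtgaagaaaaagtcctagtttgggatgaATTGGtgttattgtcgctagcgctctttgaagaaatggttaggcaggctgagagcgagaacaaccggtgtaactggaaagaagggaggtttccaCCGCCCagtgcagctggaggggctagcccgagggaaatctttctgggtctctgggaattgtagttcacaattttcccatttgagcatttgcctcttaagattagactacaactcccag
Bsn, chr9:108190384-108190633, minus strand: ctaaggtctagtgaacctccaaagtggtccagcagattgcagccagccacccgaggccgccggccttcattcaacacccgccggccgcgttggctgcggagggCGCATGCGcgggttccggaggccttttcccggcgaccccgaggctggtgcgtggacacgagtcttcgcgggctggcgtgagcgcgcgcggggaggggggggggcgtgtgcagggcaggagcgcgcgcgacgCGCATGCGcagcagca
Stxbp5, chr10:9901041-9901290, minus strand: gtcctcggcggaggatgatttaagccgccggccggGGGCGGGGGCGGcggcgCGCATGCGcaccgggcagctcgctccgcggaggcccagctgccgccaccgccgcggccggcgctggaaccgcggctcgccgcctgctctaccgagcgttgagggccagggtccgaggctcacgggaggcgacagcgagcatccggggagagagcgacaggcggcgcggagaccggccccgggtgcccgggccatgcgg
Sv2b, chr7:75309263-75309512, minus strand: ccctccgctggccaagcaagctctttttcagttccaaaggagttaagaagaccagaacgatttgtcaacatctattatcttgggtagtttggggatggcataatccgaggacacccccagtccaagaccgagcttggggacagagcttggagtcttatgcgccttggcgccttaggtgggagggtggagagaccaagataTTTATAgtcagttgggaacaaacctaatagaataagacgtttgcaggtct
A GC box stood in 63.2% of the members' windows and in 32.7% of all 32851 windows, a CCAAT box in 15.8% and 33.8%, and a TATA box in 7.89% and 12.4%. The NRF1 core stood in 7.89% of the members' windows and in 1.55% of all windows. It was found for 3 of the 26 genes, at 2 places for Bsn and at 1 each for Stxbp5 and Syn1. Sv2b was one of the 2 genes with a match to the letters of the TATA box, the other being Rab3b. In the Sv2b window shown this match is on the opposite strand and is printed as TTTATA. The cAMP response element was found for Syn1 alone among the 26 genes. Syt1 and Sv2b had other windows that are not shown, some of them without any of these motifs. The median GC content was 60.8% in the members' windows and 52.4% in all windows, and in the windows shown it was 56.4% for Syt1, 47.6% for Rab3c, 71.6% for Bsn, 78.4% for Stxbp5 and 48.8% for Sv2b. These matches describe the letters only.

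Synaptotagmins are vesicle and membrane proteins with paired C2 domains, and only some of them bind calcium. Of the 10 measured, 2 fell in medial cortex and 0 rose. Syt1, the calcium sensor for fast release in forebrain neurons, had 22.5, 22.5 and 31.0 CPM in the medial libraries and 56.4 and 94.2 CPM in the lateral libraries. The groups did not overlap (log2 fold change −1.57, SE 0.25, adjusted p = 0.0316). Syt4, which does not trigger fast release and resides on secretory vesicles of axons and dendrites, had 44.9, 37.0 and 41.8 CPM in medial and 81.5 and 155 CPM in lateral libraries. Its log2 fold change was −1.52 (SE 0.26, adjusted p = 0.0335), and it was −0.98 without lateral library 2, the higher of the lateral pair. Syt4 shares 14.54% of its exon bases with an antisense gene in the GENCODE M21 annotation.

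Syt11, which does not bind calcium and acts in membrane recycling, was the most abundant of these genes by CPM and by CPM per kb of exon in both regions. It had 422, 430 and 420 CPM in medial and 358 and 352 CPM in lateral libraries, so that the medial libraries lay above the lateral ones. This difference was small and even between libraries (log2 fold change 0.25, SE 0.07) and did not pass in edgeR (adjusted p = 0.0723), while DESeq2 and the block by tag (adjusted p = 0.0180) called Syt11 higher in medial cortex. Syt7, a slow calcium sensor for asynchronous release and for lysosome fusion, had 47.7, 41.3 and 53.4 CPM in medial and 35.6 and 46.3 CPM in lateral libraries, with overlapping groups (log2 fold change 0.21, SE 0.16). Of the 10 synaptotagmins 7 had negative and 3 positive log2 fold changes, and none of the 3 passed.

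Syt3, a high-affinity calcium sensor (log2 fold change −1.02, adjusted p = 0.0553), and Syt5 (−0.79, adjusted p = 0.0750) had no overlap between the groups, with lower medial values, but were not called. Syt6 varied widely among the medial libraries, with 0.972 CPM in medial library 1, 6.57 and 10.3 CPM in the other medial libraries and 15.6 and 26.6 CPM in the lateral ones. Its log2 fold change of −1.80 had an SE of 0.71 (adjusted p = 0.144) and was −1.31 without medial library 1. Syt2, the fast calcium sensor of hindbrain and spinal synapses, had 1.56 to 2.01 CPM in medial and 1.63 and 3.05 CPM in lateral libraries (log2 fold change −0.39, SE 0.33, adjusted p = 0.464). Syt13 (0.629 to 2.85 CPM) and Syt17 (0.441 to 1.53 CPM) were also near the bottom of the range, and Syt17 did not pass (log2 fold change 0.99, SE 0.45, adjusted p = 0.187). Medial library 3 was at least 2-fold above every other library for Syt17, whose log2 fold change was 0.47 without it and 1.09 with the block by tag (adjusted p = 0.0231).

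Among the SNARE proteins and their partners 4 of 7 fell in medial cortex and 0 rose. Snap25, the plasma membrane partner of syntaxin in the SNARE bundle, had 25.8, 33.4 and 38.4 CPM in medial and 53.4 and 82.9 CPM in lateral libraries (log2 fold change −1.07, SE 0.23, adjusted p = 0.0466). For Stx1a, syntaxin 1A of the plasma membrane, the values were 11.0, 13.3 and 14.6 CPM in medial and 19.5 and 23.5 CPM in lateral libraries (log2 fold change −0.72, SE 0.16, adjusted p = 0.0480). Both genes were highest in lateral library 2 and lowest in medial library 1. Vamp2, their partner on the vesicle, had the same order, with 10.8, 16.3 and 16.4 CPM in medial and 20.3 and 28.3 CPM in lateral libraries, but did not pass (log2 fold change −0.74, SE 0.23, adjusted p = 0.0880). Vamp1, the vesicle SNARE best known from brainstem, spinal cord and motor terminals, had 4.14 to 5.11 CPM in medial and 3.16 and 4.44 CPM in lateral libraries, with overlapping groups (log2 fold change 0.30, SE 0.22, adjusted p = 0.389).

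The share of Vamp1 in the sum of Vamp1 and Vamp2 reads was 31.3% (95% exact interval 27.1 to 35.8%), 23.9% (20.5 to 27.4%) and 20.2% (17.4 to 23.3%) in medial libraries 1 to 3, and 17.9% (16.1 to 19.9%) and 10.04% (8.65 to 11.6%) in lateral libraries 1 and 2. Intervals cover counting error only, shares are of reads and not of molecules, and no test was run on this share. The groups did not overlap, although the intervals of medial library 3 and lateral library 1 did.

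Complexins are small proteins that clamp and promote fusion of SNARE-bound vesicles. Cplx2, the dominant one in forebrain, had 115, 101 and 124 CPM in medial and 157 and 212 CPM in lateral libraries (log2 fold change −0.70, SE 0.15, adjusted p = 0.0467). Cplx1 had 5.62, 9.76 and 12.5 CPM in medial and 16.9 and 25.1 CPM in lateral libraries, with no overlap, and did not pass (log2 fold change −1.17, SE 0.34, adjusted p = 0.0741). Stxbp5, or tomosyn, which competes with VAMP2 for syntaxin and SNAP25 and so limits release, had the smallest fold of the 13 called genes. It had 27.5, 28.9 and 29.2 CPM in medial and 37.0 and 37.7 CPM in lateral libraries (log2 fold change −0.39, SE 0.08, adjusted p = 0.0449).

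Of 9 proteins of the vesicle membrane and its coat 2 fell in medial cortex and 0 rose. Synapsins coat vesicles and hold them in the reserve pool. Syn2 had 16.4, 18.6 and 18.9 CPM in medial and 28.3 and 32.1 CPM in lateral libraries, with tight groups (log2 fold change −0.75, SE 0.12, adjusted p = 0.0316). Syn1 (2.46 to 4.56 CPM in medial, 5.31 and 9.49 CPM in lateral libraries) and Syn3 (4.41 to 5.23 CPM in medial, 5.87 and 9.17 CPM in lateral libraries) had the same order without passing (log2 fold changes −1.05 and −0.62, adjusted p = 0.0998 and 0.133). Syn1, the synapsin best known from mature synapses, supplied 10.6 to 15.9% of synapsin reads in medial and 13.5 and 18.7% in lateral libraries, ranges that overlapped.

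The SV2 proteins are vesicle glycoproteins that bind synaptotagmin 1 and serve as entry receptors for botulinum toxin. Of the 3, Sv2a alone passed. Sv2a, the broadly expressed form, had 22.5, 32.5 and 38.9 CPM in medial and 56.2 and 80.1 CPM in lateral libraries and was called lower in medial cortex (log2 fold change −1.12, SE 0.25, adjusted p = 0.0482). Sv2b had 44.6, 24.3 and 25.4 CPM in medial and 20.1 and 19.5 CPM in lateral libraries, with no overlap in the opposite order (log2 fold change 0.66, SE 0.28, adjusted p = 0.167). Medial library 1 was the highest, and without it the log2 fold change of Sv2b was 0.33, against 0.32 with the block by tag (adjusted p = 0.0183). Sv2c, a form of basal ganglia and brainstem, had 3.47, 1.08 and 0.334 CPM in medial and 0.487 and 0.464 CPM in lateral libraries, and its log2 fold change of 1.72 (SE 0.90) was 0.50 without medial library 1 (adjusted p = 0.245 with all libraries).

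Sv2b made up 63.2% (95% exact interval 61.1 to 65.3%), 42.0% (39.6 to 44.4%) and 39.3% (37.3 to 41.3%) of SV2 reads in medial libraries 1 to 3. Its share was 26.2% (25.0 to 27.5%) in lateral library 1 and 19.5% (18.5 to 20.6%) in lateral library 2. The shares did not overlap between the regions, also without medial library 1. No test was run on this share.

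Syp encodes synaptophysin, a major vesicle membrane protein, and its relative Sypl is found on vesicles of many tissues. Syp had 26.2, 45.3 and 53.2 CPM in medial and 69.9 and 84.4 CPM in lateral libraries (log2 fold change −0.89, SE 0.28, adjusted p = 0.0930). Sypl ran the other way, with 24.7, 28.0 and 23.6 CPM in medial and 20.5 and 18.0 CPM in lateral libraries (log2 fold change 0.40, SE 0.12, adjusted p = 0.0856), and DESeq2 and the block by tag (adjusted p = 0.0049) called it higher in medial cortex. Syp shares 33.8% of its exon bases with an antisense gene in GENCODE M21, and libraries without strand cannot separate reads there. Snap91, the clathrin assembly protein AP180 that rebuilds vesicles after fusion, had 30.9, 44.8 and 48.3 CPM in medial and 62.6 and 81.6 CPM in lateral libraries and did not pass (log2 fold change −0.80, SE 0.21, adjusted p = 0.0627).

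Rab3 GTPases sit on vesicles and bind RIM proteins at the active zone, and 2 of 3 fell in medial cortex. Rab3c had 72.2, 83.7 and 104 CPM in medial and 178 and 272 CPM in lateral libraries (log2 fold change −1.38, SE 0.22, adjusted p = 0.0316). In Rab3a, the main form of mature brain synapses, the values were 36.5, 49.8 and 65.2 CPM in medial and 95.3 and 120 CPM in lateral libraries (log2 fold change −1.09, SE 0.24, adjusted p = 0.0467). In both, every medial library was below either lateral library. Rab3b, at 2.12 to 4.03 CPM in medial and 3.16 and 4.79 CPM in lateral libraries, overlapped between the regions (log2 fold change −0.29, SE 0.32, adjusted p = 0.576). Scaled by exon length, Rab3a ranked second among the 36 genes in both regions, at 28.3 CPM per kb in medial and 60.3 CPM per kb in lateral cortex, and Rab3c ranked seventh.

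The active zone genes encode the scaffold and priming proteins of the release site, and 2 of 5 fell in medial cortex. Unc13a, or Munc13-1, which primes vesicles by opening syntaxin, had 47.2, 60.3 and 64.0 CPM in medial and 90.2 and 104 CPM in lateral libraries (log2 fold change −0.76, SE 0.15, adjusted p = 0.0377). Bsn, the giant scaffold bassoon, had 23.4, 29.8 and 30.1 CPM in medial and 41.8 and 51.1 CPM in lateral libraries (log2 fold change −0.74, SE 0.15, adjusted p = 0.0415). Pclo, the related scaffold piccolo, had the same order but a wider spread, with 13.01, 19.1 and 21.0 CPM in medial and 23.9 and 40.2 CPM in lateral libraries (log2 fold change −0.85, SE 0.28, adjusted p = 0.101).

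The RIM proteins link Rab3, Munc13 and calcium channels, and neither of those measured passed. Rims1 had 4.02 to 5.14 CPM in medial and 6.48 and 9.16 CPM in lateral libraries without passing (log2 fold change −0.72, SE 0.22, adjusted p = 0.0834). Rims2 was nearly level, with 33.0, 27.1 and 28.4 CPM in medial and 30.4 and 30.3 CPM in lateral libraries. Its log2 fold change was −0.04 (SE 0.11, adjusted p = 0.847), and it was 0.04 with scaling by library size alone.

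Neurexins are presynaptic adhesion molecules that bind neuroligins and other partners across the cleft. Nrxn3 had the largest fold change of the 36 genes in either direction, with 2.15, 2.52 and 5.65 CPM in medial and 15.2 and 21.6 CPM in lateral libraries. The groups were well apart (log2 fold change −2.39, SE 0.40, adjusted p = 0.0323). The log2 fold change of Nrxn3 was −2.97 without medial library 3, the highest of the medial libraries. Nrxn2 had 28.4, 37.0 and 45.5 CPM in medial and 56.2 and 79.5 CPM in lateral libraries, without overlap, and did not pass (log2 fold change −0.87, SE 0.23, adjusted p = 0.0613).

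**Figure D2:**
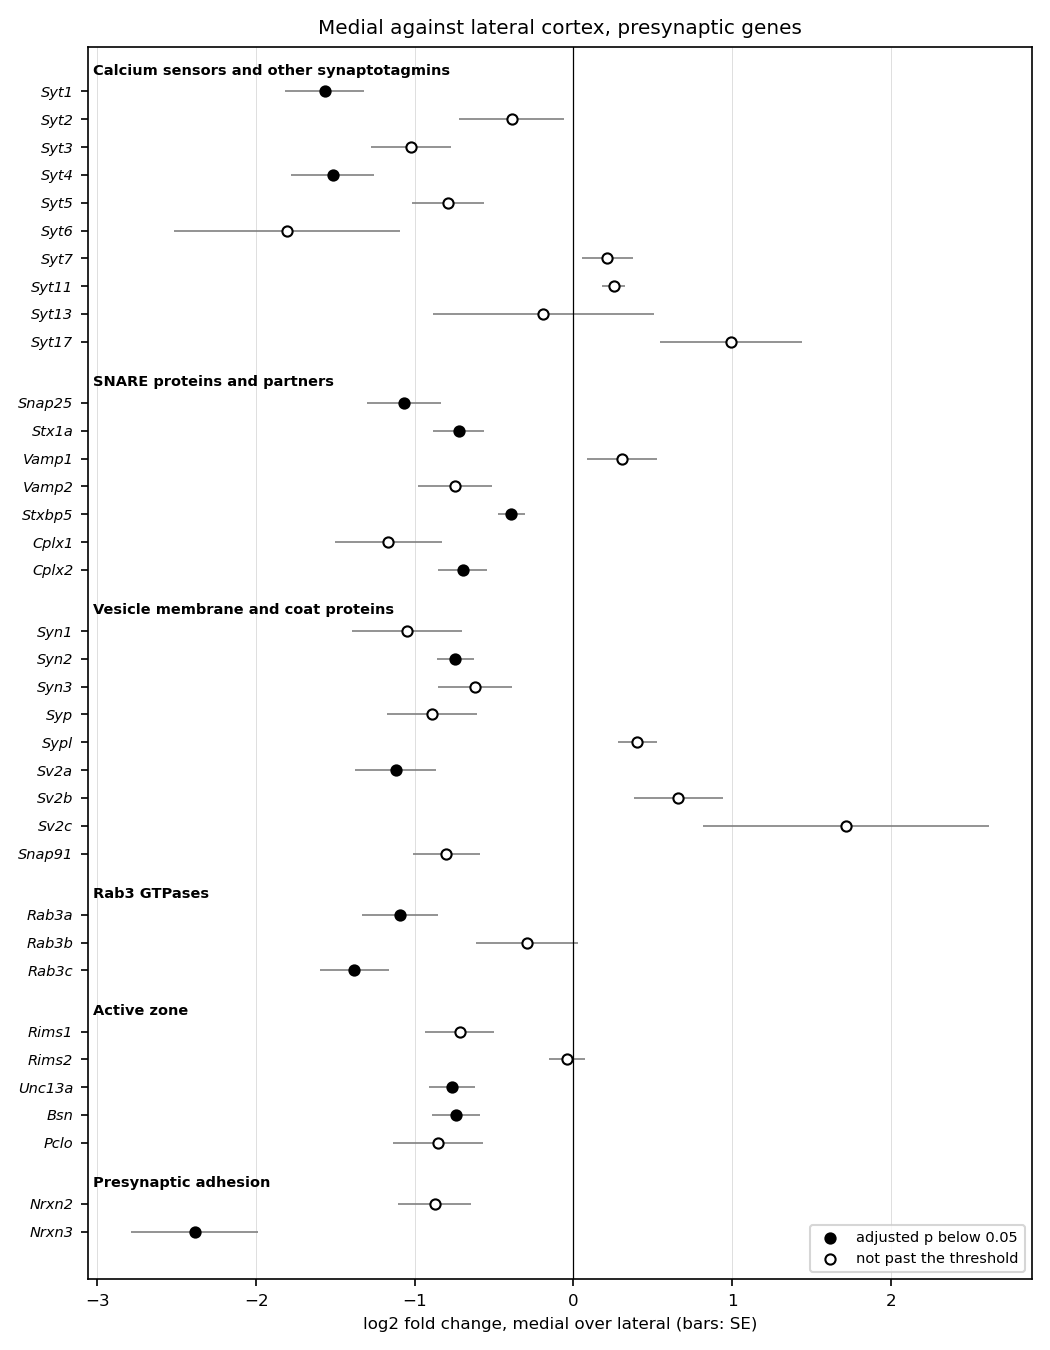
Log2 fold change of each presynaptic gene, medial over lateral cortex, with bars for the SE. The 13 filled points passed an adjusted p of 0.05 in edgeR and all lie left of 0, between −2.39 for Nrxn3 and −0.39 for Stxbp5, and the open points did not pass.

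**Figure D3:**
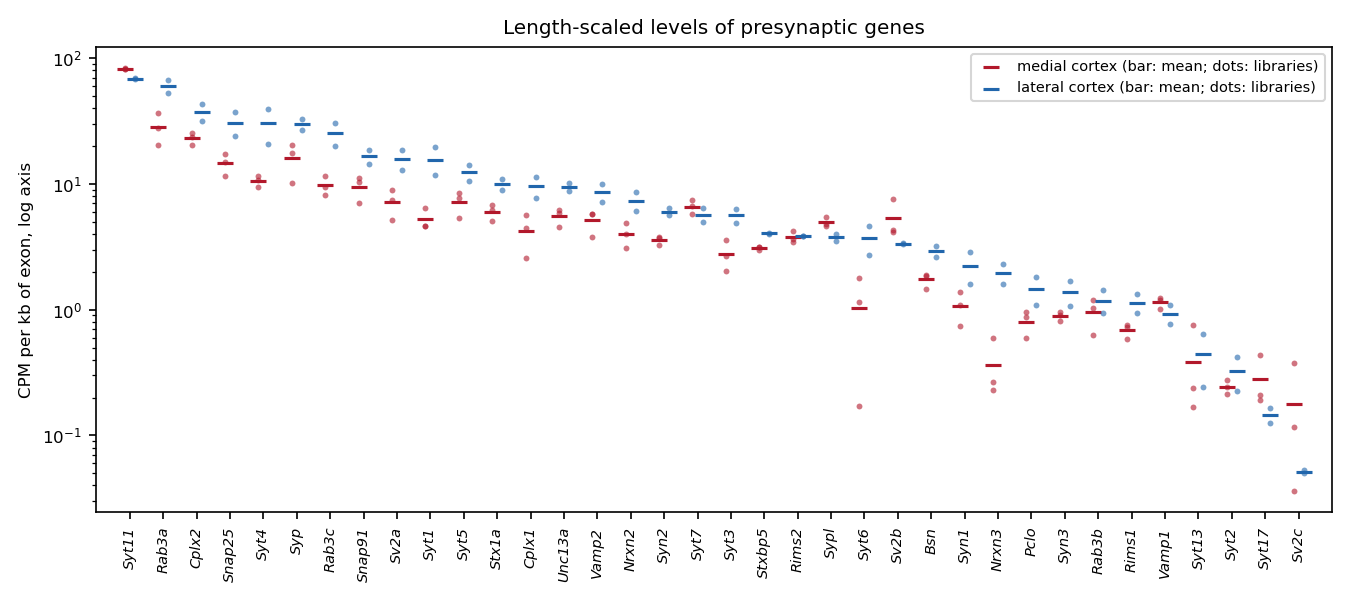
Level per kb of exon (CPM per kb, log axis) of the 36 genes in order of their mean in lateral cortex, with medial values left of lateral ones, bars for means and dots for libraries. Syt11 is highest in both regions (82.1 CPM per kb in medial and 68.9 CPM per kb in lateral cortex) and Sv2c lowest.

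Lengths in this scaling are exon unions of GENCODE M21, another annotation than that of the counts, so the order holds only as far as the isoforms do. In medial cortex Syt11, Rab3a, Cplx2, Syp and Snap25 stood highest, at 82.1, 28.3, 23.0, 16.0 and 14.6 CPM per kb. In lateral cortex Syt11, Rab3a and Cplx2 again led, at 68.9, 60.3 and 37.4 CPM per kb, followed by Snap25 and Syt4 at 30.5 and 30.3 CPM per kb, which did not differ beyond their spread. Syt11 stood far above Rab3a in medial cortex and closer to it in lateral cortex, where Rab3a had 53.3 and 67.4 CPM per kb and Syt11 69.4 and 68.3 CPM per kb.

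Across the 36 genes, lateral library 2 was the highest library in 27, and medial library 1 was the lowest in 24. The summed level of the 36 genes was 1197, 1289 and 1415 CPM in medial libraries 1 to 3 and 1700 and 2203 CPM in lateral libraries 1 and 2. Syt11, whose medial values were not below the lateral ones, made up 29.7 to 35.2% of the sum in medial and 16.0 and 21.1% in lateral libraries.

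Other genes of the release machinery followed a similar pattern with more exceptions. Of all genes tested, 5.1% were lower and 4.62% higher in medial cortex. Of 61 further presynaptic genes 56 were tested, and 12 were lower and 3 higher in medial cortex, with a median log2 fold change of −0.22. The 3 of 56 that were higher are near the share over all genes. By the lowest adjusted p the lower ones were Cask, a scaffold that binds neurexins (log2 fold change −0.72, SE 0.11), Napb, the brain form of the SNARE disassembly factor SNAP (−0.85, SE 0.14), Synj1, a lipid phosphatase of vesicle recycling (−0.59, SE 0.10), and Syt16 (−1.36, SE 0.24). The higher ones were Cadps, Rims3 and Synpr. Cadps, or CAPS1, which primes dense-core vesicles, had 253, 275 and 214 CPM in medial and 75.3 and 90.8 CPM in lateral libraries (log2 fold change 1.57, SE 0.14, adjusted p = 0.0238). Synpr, or synaptoporin, a relative of synaptophysin found in hippocampal mossy fibres, had 26.6, 13.3 and 8.01 CPM in medial and 2.24 and 1.45 CPM in lateral libraries (log2 fold change 3.09, SE 0.58, adjusted p = 0.0371). Rims3, a short RIM form, had 20.9 CPM ± 1.41 (SD, n = 3) in medial and 12.97 CPM ± 0.324 (SD, n = 2) in lateral cortex (log2 fold change 0.69, SE 0.11, adjusted p = 0.0318).

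Genes that mark neurons and progenitors differed between the regions too, in opposite directions. In a list of 15 pan-neuronal genes, 14 of them measured, 6 were lower and 1, the neurofilament gene Nefl, was higher in medial cortex, with a median log2 fold change of −0.78. Their summed level was 1848 to 2742 CPM in medial and 3568 to 4697 CPM in lateral libraries, with Tubb3 (522 to 853 CPM in medial and 1055 and 1292 CPM in lateral libraries) and Dcx (239 to 341 CPM in medial and 482 and 663 CPM in lateral libraries) the highest. Of 13 progenitor genes 3 were higher and 0 lower, and the sum was 5695 to 6698 CPM in medial and 3832 to 4508 CPM in lateral libraries, led by Top2a (1019 to 1234 CPM in medial and 661 and 807 CPM in lateral libraries) and Vim (937 to 1292 CPM in medial and 682 and 747 CPM in lateral libraries).

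Kinds of neurons differed in direction. All 10 genes of Cajal-Retzius cells, early reelin-secreting neurons of the cortical surface, were higher in medial cortex, and their sum was 604 to 694 CPM in medial and 184 to 228 CPM in lateral libraries. Reln itself had 435 to 556 CPM in medial and 145 and 181 CPM in lateral libraries, and Nhlh2 had 51.7 to 63.3 CPM in medial and 17.0 and 21.9 CPM in lateral libraries. Of 15 genes of GABAergic neurons 10 were lower and 0 higher, with a sum of 82.0 to 122 CPM in medial and 214 to 266 CPM in lateral libraries, among them Erbb4 (7.17 to 18.0 CPM in medial and 43.0 and 59.5 CPM in lateral libraries). The defining enzymes Gad1 and Gad2 were at 0.280 to 2.03 CPM in medial and 8.86 to 14.2 CPM in lateral libraries. None of the genes in these 4 lists was at 0 in all libraries, and the part of any cell type in the presynaptic differences was not tested.

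**Figure D4:**
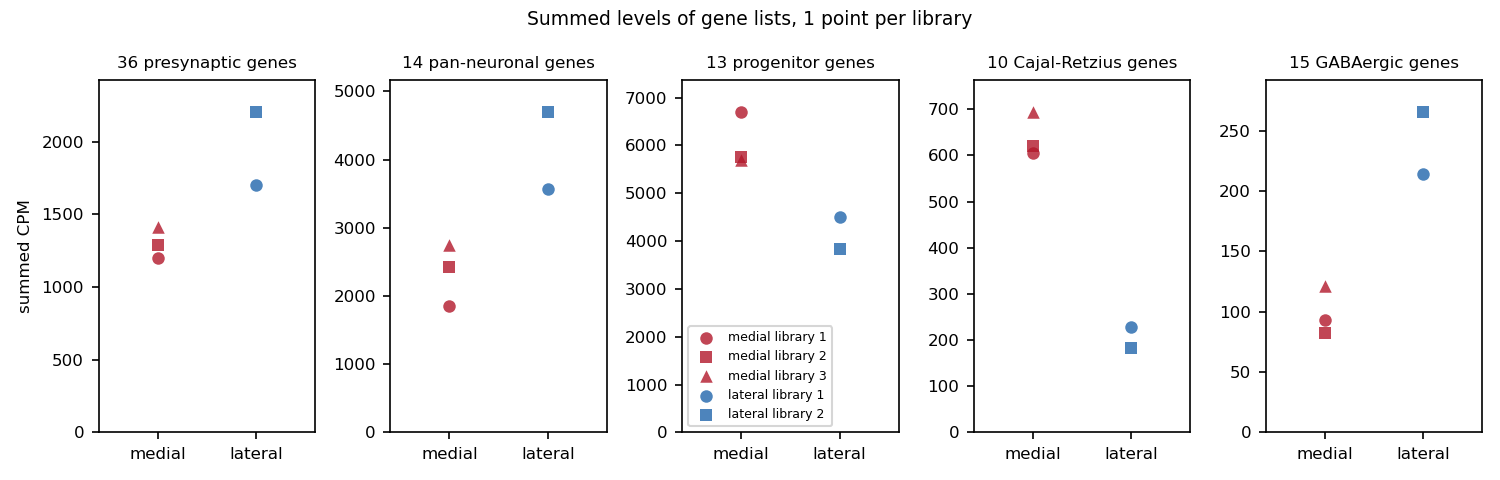
Summed level of 5 gene lists in each library, in CPM from 0, with medial libraries left of lateral ones. Presynaptic, pan-neuronal and GABAergic sums lie lower in all 3 medial libraries than in both lateral ones, and progenitor and Cajal-Retzius sums lie higher.

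Among cells that do not form presynaptic terminals, endothelial genes summed to 91.2 to 106 CPM in medial and 119 to 133 CPM in lateral libraries (1 of 8 lower), with Kdr and Pecam1 the highest. Erythroid genes summed to 534 to 790 CPM in medial and 764 to 852 CPM in lateral libraries (1 of 9 lower), mostly from Hba-a1 and Hbb-b1. Microglial genes summed to 30.0 to 63.3 CPM in medial and 23.0 to 31.8 CPM in lateral libraries (0 of 8 called), with Cx3cr1 and Csf1r the highest, and choroid plexus genes summed to 19.2 to 28.7 CPM in medial and 9.24 to 18.7 CPM in lateral libraries (2 of 6 tested higher), with Foxj1 and Ttr the highest. Of the 8 cortex identity genes, Emx2 and Lhx2 were higher and Tbr1 was lower in medial cortex, and the 2 with the highest mean were Neurod6 (215 to 540 CPM in medial and 924 and 1183 CPM in lateral libraries) and Lhx2.

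To describe the presynaptic genes against this background of neuronal RNA, each level was set relative to the mean log2 CPM of the 14 pan-neuronal genes in the same library. That mean was 6.21, 6.54 and 6.76 in medial libraries 1 to 3 and 6.96 and 7.36 in lateral libraries 1 and 2, a difference of −0.65 between the group means. On this relative scale the median difference of the 36 genes, medial minus lateral, was −0.10, with 23 negative and 13 positive, and 14 of them overlapped between the groups. The 14 pan-neuronal genes include Nefl, which ran the other way (log2 fold change 1.33). Without it the mean would differ more between the groups, and the signs of small differences, the median among them, could turn. Values without Nefl were not computed. Of the 13 genes called on levels, 7 still had every medial library below both lateral ones (Syt1, Syt4, Snap25, Sv2a, Rab3a, Rab3c and Nrxn3). The other 6 (Stx1a, Stxbp5, Cplx2, Syn2, Unc13a and Bsn) overlapped, and 5 of them differed by less than 0.2 on the log2 scale. These values carry no test, and the share of all genes tested without overlap on this scale was not computed.

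Differences relative to the pan-neuronal mean ran in both directions. Relative to it, Nrxn3 differed by −1.86 between medial and lateral cortex, Syt1 by −0.89, Syt4 by −0.80 and Rab3c by −0.71 on the log2 scale. Syt6 differed by −1.66, with medial library 1 furthest out. Sv2b differed by 1.26, Sypl by 1.06, Vamp1 by 0.98, Syt11 by 0.91, Syt7 by 0.87 and Rims2 by 0.61, each without overlap between the groups, and Syt17 by 1.44 at under 2 CPM. This relative scale adds the same shift to every gene of a library, so it changes where 0 lies and not the order of the genes. The pan-neuronal mean itself differed by −0.65, so a gene at equal CPM in both regions has a positive difference of about that size. Rims2 (log2 fold change −0.04) was close to this case. Syt7 and Vamp1 (0.21 and 0.30) also overlapped in CPM, so their positive values here do not show higher medial levels.

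**Figure D5:**
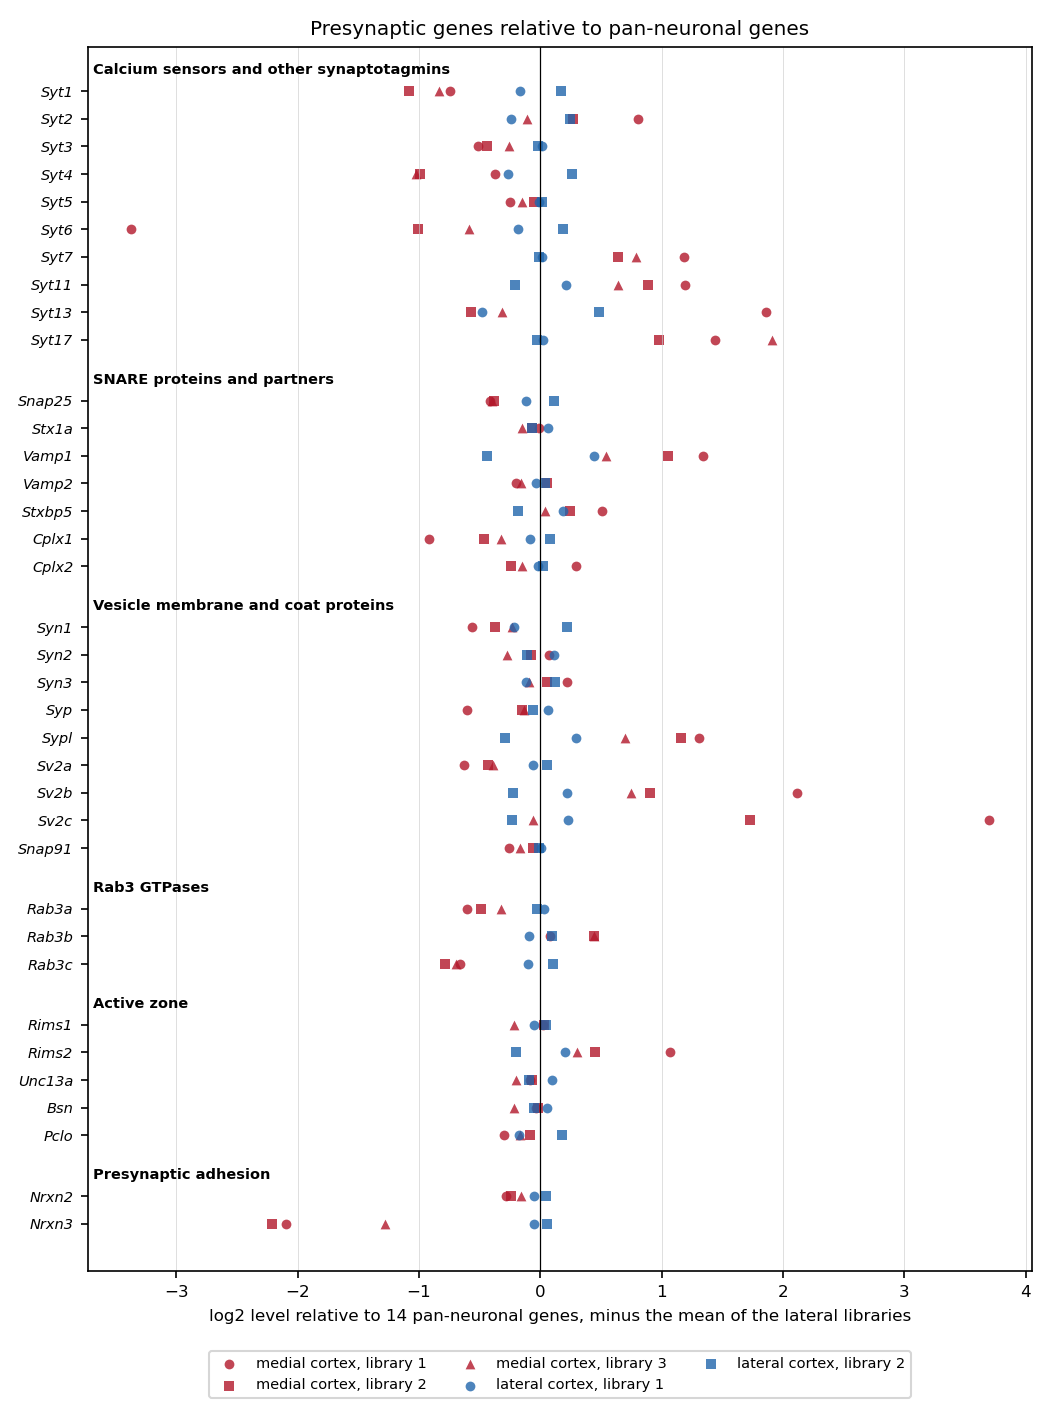
Level of each presynaptic gene relative to the mean log2 CPM of 14 pan-neuronal genes, by library, with the mean of the lateral libraries set to 0. Medial points (red) lie left of both lateral points (blue) for 15 genes, among them Nrxn3, Syt1, Syt4 and Rab3c, right of both for 7 genes, and overlap for 14. The shares of all genes tested on this scale were not computed. A gene at equal CPM in both regions would have its medial points right of 0.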

How the data were processed

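Polyadenylated RNA of 3 medial and 2 lateral cortex samples was sequenced without marking the strand, per the labels' protocols. The authors deposited whole-number read counts per gene symbol, not normalised, and the submitters' processing notes name BWA, STAR, HTSeq and the build mm9, with versions and roles not given in the sources used here. Reads outside genes or not uniquely assigned (5 HTSeq classes, 23.1 to 28.7% of each file) were kept out. TMM-scaled counts entered edgeR 4.0.16 under R 4.3.3 (glmQLFit with legacy set to false, group as the only term), after filterByExpr with a count of 10 and a total of 15, and p-values were adjusted by Benjamini-Hochberg over 16229 genes at a threshold of 0.05. Standard errors were derived as |log2 fold change| over the square root of F. Precision is limited by counting error at low levels and by 3 residual degrees of freedom, with fewer in the fits with a block or without a library. The test was checked on simulated data. No 2 libraries held identical counts.

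The members and lists were chosen with earlier results of these data known. Named in full were members past the threshold and the 2 of highest mean CPM in each role group. Of the further presynaptic genes up to 4 per direction by adjusted p, and of marker lists the 2 of highest mean, were named, and others were chosen after their values were seen (Gad1, Gad2, Emx1, Emx2, Tbr1, Nefl, and members with a contrast to a relative). Pan-neuronal Map2 is not analysed here, and some marker genes are not reported here by name. Alternatives were DESeq2 1.42.0, other scalings and filters, thinning, omission of single libraries, and a block term, either the replicate number or the tag carried by each deposited file. Exon lengths and overlaps came from GENCODE M21, in which 14 of the 36 genes share exon bases with another gene, and promoter windows from RefSeq.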

Additional observations from a re-analysis of the deposited data

How the results depend on the processing

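Of 36 presynaptic genes 13 were called lower in medial cortex. The count was 11 to 13 with DESeq2 size factors, scaling by library size, other low-count filters or thinning to the smallest library, and 23 with DESeq2, which also called 2 higher. Leaving out a library gave 0 to 15 lower and 0 higher in edgeR, and 4 to 23 lower and 0 to 2 higher in DESeq2. For the further presynaptic genes (12 lower, 3 higher) DESeq2 gave 22 lower and 8 higher. Without a library there were 0 to 14 lower and 0 to 4 higher in edgeR, and in DESeq2 4 lower and 3 higher without lateral library 2, 19 and 5 without medial library 1, 18 and 7 without medial library 2, 19 and 6 without medial library 3, and 22 and 4 without lateral library 1. Over all genes 1577 were called, 3560 with DESeq2, 0 to 2164 without a library in edgeR and 697 to 3085 in DESeq2 (2977 without medial library 1). The cause of these differences was not tested.

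Replicate numbers in the titles do not pair the libraries by any statement of the labels, and the correlation of deviations from the group means was 0.03 for number 1 and −0.38 for number 2. With the replicate block 15 members were lower, 9 of them among the 13, and 1076 genes were called. The tag in the deposited names joins medial library 2 with lateral library 1 and medial library 3 with lateral library 2 (correlations 0.38 and 0.38). The 2 lateral libraries have equal and opposite deviations from their mean by construction. The −0.38 for number 2 is therefore the 0.38 of medial library 2 with lateral library 1 with its sign turned. These correlations are not independent of each other and do not show which libraries share an embryo. With a block by this tag 26 members were lower, the 13 included, and 4 higher, 28 further presynaptic genes were lower and 9 higher, and 5361 genes were called.

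The sign of the log2 fold change turned for 4 members that were not called with all libraries and no block. Leaving out a library, Syt2 ran from −0.79 to 0.11 (0.10 in DESeq2 without lateral library 2), Rab3b from −0.57 to 0.028 (0.0028), and Syt13 from −1.07 to 0.64 (0.65). Syt13 was also 0.15 without medial library 2 (0.15 in DESeq2), 0.093 without medial library 3 (0.058) and 0.095 with the replicate block, but −1.12 and called lower (adjusted p = 0.0153) with the block by tag. Rims2 was 0.035 with scaling by library size and ran from −0.13 to 0.018 when a library was left out, the last without medial library 2 (0.0041 in DESeq2). With thinning to the smallest library 35 of the 36 members kept their direction and their side of the threshold.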
